A study of Mus musculus with 16 samples.

Results

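The 10 genes of bile acid synthesis, transport and feedback described here are the enzymes Cyp7a1, Cyp8b1, Cyp27a1 and Cyp7b1, the uptake carriers Slc10a1, Slco1b2 and Slc10a2, the export pump Abcb11 and the nuclear receptors Nr1h4 and Nr0b2. They were chosen by gene symbol from the 55421 genes of the count table, and all 10 were among the 23018 genes with at least 10 reads in total over the 16 libraries, the minimum for testing.

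The libraries were made from poly-A RNA of whole liver of male C57BL/6 mice, and formed 4 groups of 4: control before regeneration, HIRA KO before regeneration, control after regeneration and HIRA KO after regeneration. HIRA is the histone chaperone that deposits variant H3.3 independently of replication. Every mouse had received an AAV8 virus at 6 months of age that used the Tbg promoter, which is active in hepatocytes, so the other cells of the liver were not targeted. In each control group, 2 libraries came from wildtype mice given AAV8-Tbg-Cre and 2 from wildtype mice given AAV8-Tbg-saCas9 with a guide RNA to Rosa26. In each HIRA KO group, 2 came from HIRAfl/fl mice given the same Cre virus and 2 from wildtype mice given the saCas9 virus with a guide RNA to HIRA. The left lateral and median lobes were resected 4 weeks after the virus and served as the tissue before regeneration. The liver that remained was taken 5 days after resection, so lobe, way of collection and time cannot be told apart from regeneration in any comparison of after with before.

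Total counts per library ran from 15103059 to 21738619. Levels within a gene are given as CPM, counts scaled to library size (TMM). Before regeneration Hira itself stood at 5.77 ± 0.448 CPM in control against 3.54 ± 0.571 in HIRA KO livers (mean ± SD, n = 4). Every HIRA KO library lay below every control library at both times. The groups also did not overlap for 8.07% of all genes before and 8.10% after regeneration. The Hira difference did not pass the edgeR threshold used below at either time (adjusted p 0.129 before and 0.0666 after regeneration). These are RNA levels of whole liver. By western blot, the study reported reduced HIRA protein in HIRA KO livers at both times. The columns of the tables carry a running number from 1 to 4 that is in no label, and they give neither the mouse nor the deletion approach. The HIRA KO libraries numbered 1 and 2 stood apart from the rest at both times, at -47.4, -36.6, -40.2 and -36.2 on the second principal component, against -1.14 to 31.2 for the other 12 libraries. Hira had similar values in both, 3.39 and 3.13 CPM in HIRA KO 1 and 2 and 3.26 and 4.38 CPM in HIRA KO 3 and 4 before regeneration. HIRA KO and control are therefore also compared within the columns numbered 1 and 2 and within those numbered 3 and 4. Because this split was made with the position of these libraries known, the values within it describe these libraries.

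Bile acids are made from cholesterol in hepatocytes. In the classic route CYP7A1 carries out the first and rate-limiting step and CYP8B1 directs the product toward cholic acid, while in the alternative route CYP27A1 oxidizes the side chain and CYP7B1 acts on the oxysterols. Bile acids that return from the intestine are taken up from portal blood by NTCP (Slc10a1) and OATP1B2 (Slco1b2), are secreted into bile by the bile salt export pump BSEP (Abcb11), and activate the receptor FXR (Nr1h4), which induces the corepressor SHP (Nr0b2) and so lowers their own synthesis. ASBT (Slc10a2) is the apical carrier of the ileum and of bile duct cells.

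The genes are all protein-coding and do not form a cluster (GRCm38, GENCODE M21). The enzymes lie at chr4:6265612-6275633 (Cyp7a1), chr9:121914356-121916305 (Cyp8b1), chr1:74713574-74737892 (Cyp27a1) and chr3:18071950-18243338 (Cyp7b1). The carriers lie at chr12:80953183-80968705 (Slc10a1), chr6:141629518-141686646 (Slco1b2), chr8:5083219-5105351 (Slc10a2) and chr2:69238282-69342616 (Abcb11), and the receptors at chr10:89454234-89533585 (Nr1h4) and chr4:133553376-133556536 (Nr0b2). Sequence upstream of the start site is shown for 4 members on which the results below turn. For Slc10a1 it is chr12:80968706-80968955 on the minus strand, for Slco1b2 chr6:141629268-141629517 on the plus strand, for Cyp8b1 chr9:121916306-121916555 on the minus strand and for Slc10a2 chr8:5105352-5105537 on the minus strand. All are from RefSeq (GRCm38.p6), are written 5′ to 3′ in the direction of the gene and lie outside annotated exons. Capitals mark the letters CAAAGTC, a half-site of the type bound by the hepatocyte factor HNF4A.
Slc10a1: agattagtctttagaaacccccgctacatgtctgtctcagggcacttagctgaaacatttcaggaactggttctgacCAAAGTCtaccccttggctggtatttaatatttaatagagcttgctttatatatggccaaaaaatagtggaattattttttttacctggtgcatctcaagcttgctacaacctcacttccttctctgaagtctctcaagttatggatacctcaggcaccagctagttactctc
Slco1b2: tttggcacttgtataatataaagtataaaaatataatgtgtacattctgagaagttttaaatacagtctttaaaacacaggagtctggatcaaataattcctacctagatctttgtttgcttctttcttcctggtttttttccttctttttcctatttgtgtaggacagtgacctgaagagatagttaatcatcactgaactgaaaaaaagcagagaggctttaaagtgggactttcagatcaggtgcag
Cyp8b1: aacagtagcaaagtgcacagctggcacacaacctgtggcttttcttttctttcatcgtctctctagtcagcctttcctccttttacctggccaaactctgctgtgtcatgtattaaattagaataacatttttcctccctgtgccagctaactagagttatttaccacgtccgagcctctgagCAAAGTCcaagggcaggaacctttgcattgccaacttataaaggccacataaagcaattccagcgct
Slc10a2: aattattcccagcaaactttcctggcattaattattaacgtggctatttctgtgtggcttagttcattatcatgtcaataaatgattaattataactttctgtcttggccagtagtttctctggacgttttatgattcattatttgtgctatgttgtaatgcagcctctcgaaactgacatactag
CAAAGTC was found on either strand in 3.84% of all 32851 promoter windows of 250 bases before the start site and in 2 of the 9 windows of members, 67 to 61 bases before the start of Cyp8b1 and 173 to 167 bases before that of Slc10a1. The letters CAAGGTC, the type bound by LRH-1 (Nr5a2), were held by 3.32% of all windows and by 0 of the 9. The FXR inverted repeat IR1 was held by 0.00609% and by 0, TTATGCAA, the type bound by DBP, by 0.694% and by 0, and the E-box CACGTG by 6.02% and by 1, that of Nr0b2. None of these motifs overlaps another in the printed stretches, and a match describes the letters only. Windows were matched for 8 of the 10 genes, Slc10a1 with 2, and not for Cyp7a1 and Cyp7b1.

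Levels of different genes were compared on FPKM, which is scaled per transcript length and per library. In control livers before regeneration Slc10a1 was the most abundant member, with 354.4 ± 24.6 FPKM (n = 4), and its lowest library at 333 lay above the highest of every other member. Cyp27a1 at 226.5 ± 8.42 and Slco1b2 at 215.3 ± 9.66 FPKM followed with overlapping values. Both lay above Cyp8b1 at 166.6 ± 39.4 FPKM in every library. From Cyp8b1 downward each gene overlapped its neighbour in the order: Abcb11 at 127.3 ± 12.7, Cyp7b1 at 103 ± 64.2, Nr1h4 at 42.4 ± 4.19, Nr0b2 at 32.3 ± 22.4, Cyp7a1 at 9.32 ± 2.96 and Slc10a2 at 7.69 ± 1.74 FPKM. The rate-limiting enzyme Cyp7a1 thus stood near the bottom, beside the carrier of ileum and bile duct.

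**Figure D1:**
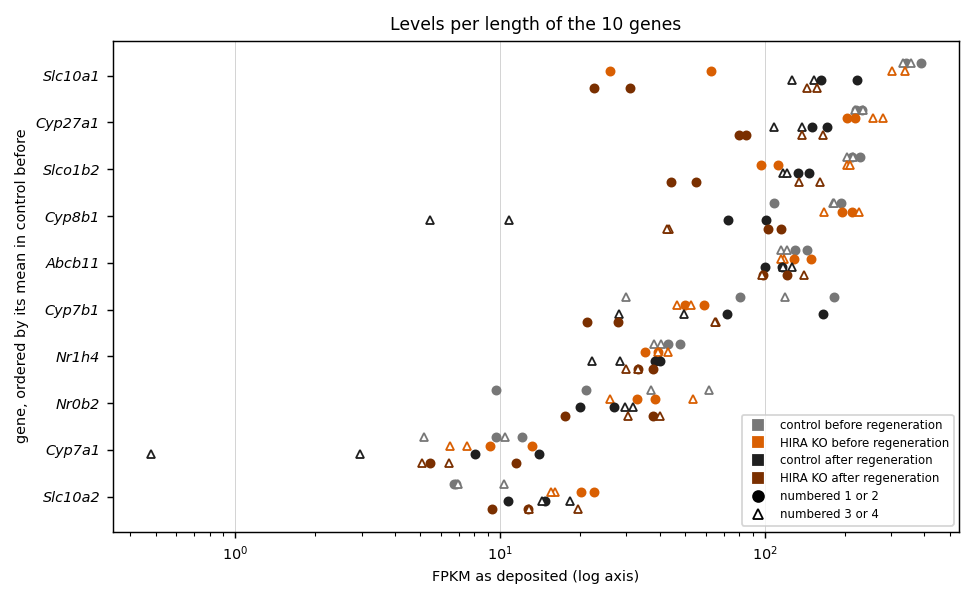
FPKM of the 10 genes (log axis) in each library, 1 row per gene in the order of its mean in control before regeneration, colored by group, with columns numbered 1 and 2 as circles and 3 and 4 as triangles. In control before regeneration Slc10a1 was highest at 354.4 FPKM, and Cyp7a1 and Slc10a2 were lowest at 9.32 and 7.69 FPKM.

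Members differed in how far they varied between replicates. Among the 7768 genes with a mean of at least 10 CPM in control before regeneration, the coefficient of variation of Slco1b2, 3.14%, was at percentile 3.57, and that of Cyp27a1, 5.04%, was at percentile 12.5. Nr0b2 at 72.8% and Cyp7b1 at 59.6% were at percentiles 99.3 and 98.8. In HIRA KO before regeneration the most variable member was Slc10a1 at 90.9%, as it was in HIRA KO after regeneration at 82.1%, and in control after regeneration it was Cyp7a1 at 105%, followed by Cyp8b1 at 102%.

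**Figure D2:**
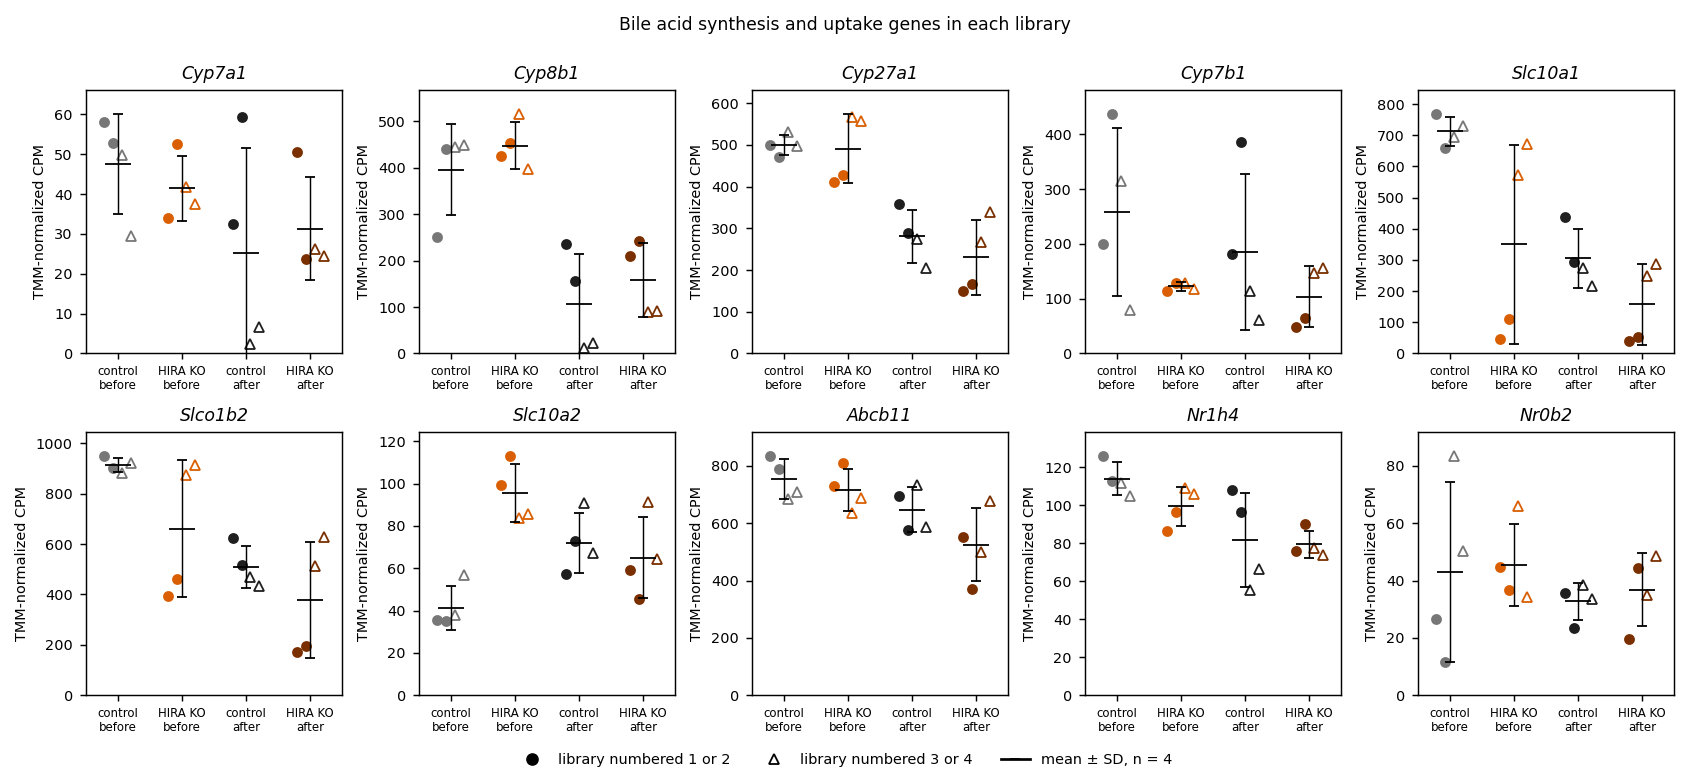
CPM of the 10 genes in each of the 16 libraries (1 panel per gene), by group, with columns numbered 1 and 2 as circles and 3 and 4 as triangles and bars for mean ± SD (n = 4). Slc10a1 stood at 45.1 and 110 CPM in HIRA KO 1 and 2 before regeneration and at 574 and 672 CPM in HIRA KO 3 and 4.

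The first question was how loss of HIRA from hepatocytes changed these genes in the resting liver. Only Slc10a2 was called among the 10 (edgeR, adjusted p under 0.05 over all genes), and it was higher in HIRA KO. Across the 23018 genes 0.0391% were called in this comparison, 9 in number. The groups did not overlap for 1 of the 10 members, again Slc10a2, against 8.07% of all genes. The median log2 fold change of the members was -0.13 and that of all genes tested was 0.01.

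Slc10a2 had 35.5, 35.1, 38.1 and 56.6 CPM in control libraries 1 to 4 before regeneration and 99.2, 113, 83.8 and 85.4 CPM in HIRA KO libraries 1 to 4. Every HIRA KO library lay above every control library. The group means were 41.3 ± 10.3 and 95.4 ± 13.7 CPM (n = 4), a 2.31-fold difference (log2 fold change 1.21 ± 0.205, edgeR adjusted p 0.0477). The direction was the same in both pairs of columns, at 1.59 ± 0.223 within columns 1 and 2 (adjusted p 0.000738) and 0.84 ± 0.220 within columns 3 and 4, where it was not called (edgeR adjusted p 0.432). The call was lost when control 1, 2 or 3 or HIRA KO 1 or 2 was left out, at a log2 fold change of 1.11 to 1.39 over the 8 libraries left out in turn, and without both HIRA KO 1 and 2 it was 1.04 (edgeR adjusted p 0.24). Bile duct markers were higher in sum in part of the same libraries. Of 8 such markers 0 were called by edgeR (3 at an unadjusted p under 0.05), and the groups overlapped for all 8. Across all 23018 genes tested, 0.0391% were called, 3031 had an unadjusted p under 0.05 and 8.07% did not overlap. The summed CPM of 8 cholangiocyte markers was 172.5 and 120.0 in HIRA KO 1 and 2, with Krt19 at 52.7 CPM in HIRA KO 1, against 70.0 to 99.6 in control, and 1 of the 8 was at 0 in each library before regeneration. In HIRA KO 3 and 4 the sum was 75.7 and 92.0, within the control range, and Slc10a2 had 83.8 and 85.4 CPM. The part of bile duct cells in the Slc10a2 difference was not tested. In whole tissue, more cells of a type and more RNA per cell cannot be told apart.

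The main bile acid carrier of the basolateral membrane, Slc10a1, was sharply lower in some HIRA KO livers and not in others. It had 768, 658, 693 and 731 CPM in control libraries 1 to 4 before regeneration. In HIRA KO it had 45.1 and 110 CPM in libraries 1 and 2, below every control, and 574 and 672 CPM in libraries 3 and 4, of which the latter lay within the control range. Over all 4 libraries the log2 fold change of -1.03 ± 0.776 was not called (edgeR adjusted p 0.611). Within columns 1 and 2 Slc10a1 fell by 3.20 on the log2 scale, with an SE of 0.386 and an edgeR adjusted p of 0.000928, which is 9.19-fold lower, and within columns 3 and 4 the log2 fold change was -0.19 ± 0.354 (adjusted p 1). The difference between the 2 pairs of columns was not tested.

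Slco1b2, which takes up bile acids without need of a sodium gradient, had the same split of the HIRA KO libraries. Control libraries held 949, 901, 883 and 922 CPM and HIRA KO libraries 392, 460, 872 and 914 CPM. HIRA KO 1 and 2 lay far below the controls, and HIRA KO 3 and 4 lay close to them. The log2 fold change was -0.47 ± 0.373 over all libraries (edgeR adjusted p 0.627) and -1.12 ± 0.155 within columns 1 and 2 (edgeR adjusted p 0.000201), and it was not called within columns 3 and 4 (adjusted p 1). Set against the export pump on FPKM, Slc10a1 stood at 2.63 to 2.94 times Abcb11 in the 4 control libraries, at 0.202 and 0.420 times in HIRA KO 1 and 2 and at 2.55 and 2.93 times in HIRA KO 3 and 4. Uptake and export transcripts were thus in a different ratio in HIRA KO 1 and 2, while Abcb11 itself had 731 and 809 CPM there, within the control range of 684 to 834 CPM.

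The 4 enzymes were not called in this comparison. Cyp7a1 stood at 41.4 ± 8.05 CPM in HIRA KO against 47.5 ± 12.5 in control (edgeR adjusted p 0.939), Cyp8b1 at 447.9 ± 50.8 against 396.5 ± 97.6 (0.953) and Cyp27a1 at 491.0 ± 83.2 against 499.8 ± 25.2 (0.978). Cyp7b1 was the most uneven: control libraries 1 to 4 held 199, 437, 314 and 79.5 CPM, whereas the HIRA KO libraries held 114, 129, 128 and 118 CPM. The HIRA KO values fell between the lowest control library and the other 3, and the log2 fold change of -1.08 ± 0.589 was not called (edgeR adjusted p 0.460). The control library with the lowest Cyp7b1, number 4, was also the lowest of its group in the summed CPM of 8 male-biased liver genes, at 2800 against 5336 to 7194, and the highest in 8 female-biased genes, at 80.4 against 6.19 to 7.81. The HIRA KO libraries before regeneration had sums of 2739 to 4395 CPM for the male-biased genes. For the female-biased ones the sums were 90.1 to 122.9 CPM, above every control library. In each list 0 of the 8 genes were called by edgeR (1 and 2 at an unadjusted p under 0.05). Across all 23018 genes tested, 0.0391% were called and 3031 had an unadjusted p under 0.05. The part of the male-biased and female-biased genes in Cyp7b1 was not tested.

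Of the receptors, Nr1h4 stood at 99.6 ± 10.2 CPM in HIRA KO against 114.0 ± 8.66 in control, and Nr0b2 at 45.4 ± 14.4 against 43.0 ± 31.3 CPM (n = 4). Neither was called, and none of Cyp7a1, Cyp8b1, Cyp27a1, Cyp7b1, Abcb11, Nr1h4 and Nr0b2 was called by edgeR within columns 1 and 2 (adjusted p 0.0826 or more) or within columns 3 and 4 (0.989 or more). Nr0b2 ran from 11.7 to 83.4 CPM within the control group alone, wider than its range of 34.1 to 65.8 CPM in HIRA KO.

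Within columns 1 and 2, 3 of the 10 members were called (Slc10a1 and Slco1b2 lower, Slc10a2 higher), where 8.55% of all genes were. Columns 3 and 4 gave 0 of the 10, where 0.0478% of all genes were called. Other markers set HIRA KO 1 and 2 apart as well. The summed CPM of 7 stellate cell and fibroblast markers was 597 and 478 in these libraries and 249 and 265 in HIRA KO 3 and 4, against 221.8 to 249.5 in control. The sum of 8 hepatocyte markers was 169400 and 151300 against 122100 and 136700, and 108500 to 121200 in control, with none of the 8 at 0 in any library. This sum is led by abundant transcripts. Over all 4 libraries per group, 6 of the 8 had a log2 fold change above 0 and 2 below it, down to -0.85. The part of these markers in the lower carriers was not tested.

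**Figure D3:**
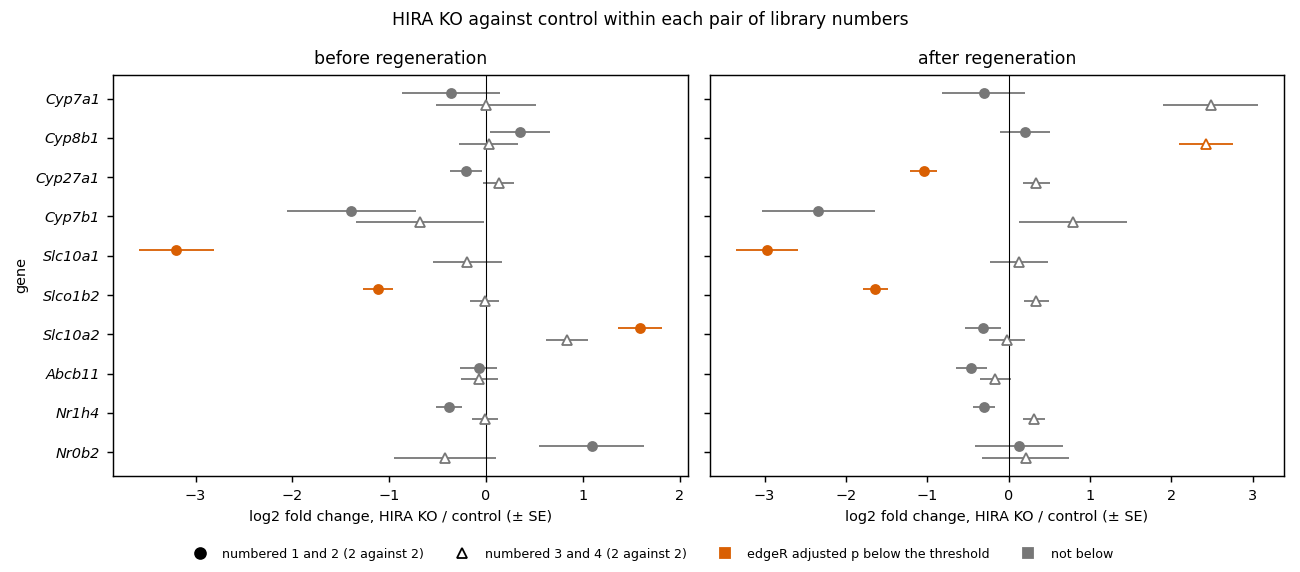
Log2 fold change (± SE) of HIRA KO against control for the 10 genes before (left) and after (right) regeneration, within columns numbered 1 and 2 (circles) and within columns numbered 3 and 4 (triangles), 2 libraries against 2, with those called by edgeR in orange. Slc10a1 lay at -3.20 and -2.97 in columns 1 and 2 and at -0.19 and 0.13 in columns 3 and 4.

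The second question was how these genes differed between HIRA KO and control after regeneration. Over all libraries 0 of the 10 members were called by edgeR, and 0 had an unadjusted p under 0.05, where 0.491% of all genes were called. The groups of 4 overlapped for all 10, whereas 8.10% of all genes did not overlap. The members' median log2 fold change was -0.22, and that of all genes was 0.02.

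Slc10a1 kept its split by column number. Control libraries 1 to 4 held 437, 293, 274 and 216 CPM after regeneration. HIRA KO libraries held 38.8, 54.1, 248 and 288 CPM, the first 2 below every control and the last 2 within the control range. The log2 fold change was -0.96 ± 0.776 over all libraries (edgeR adjusted p 0.601), -2.97 ± 0.383 within columns 1 and 2 (adjusted p 0.000692) and 0.13 within columns 3 and 4. Slco1b2 held 625, 515, 468 and 434 CPM in control and 172, 194, 514 and 629 CPM in HIRA KO. HIRA KO 4 was the highest of the 8 libraries and HIRA KO 1 the lowest. Its log2 fold change was -0.44 ± 0.373 over all libraries (edgeR adjusted p 0.618), -1.64 ± 0.158 within columns 1 and 2 (adjusted p 2.12e-06) and 0.34 ± 0.154 within columns 3 and 4 (adjusted p 0.502).

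Slc10a2, higher in HIRA KO before regeneration, had 57.1, 72.7, 90.8 and 67.0 CPM in control and 59.0, 45.6, 91.1 and 64.3 CPM in HIRA KO after it. The 2 groups covered much the same range, with a log2 fold change of -0.15 ± 0.202 (edgeR adjusted p 0.781). The change of its HIRA KO effect with regeneration was -1.35 ± 0.288 on the log2 scale, with an unadjusted p of 0.000206 that did not pass over all genes (edgeR adjusted p 0.242). In that test 0% of genes were called by edgeR, 1568 genes had an unadjusted p under 0.05, and DESeq2 called 67 genes, Slc10a2 among them (adjusted p 0.0113).

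Of the enzymes of the alternative route, Cyp27a1 was called lower in HIRA KO within columns 1 and 2 after regeneration. Cyp27a1 had 359, 289, 274 and 204 CPM in control and 149, 166, 266 and 340 CPM in HIRA KO. Its log2 fold change was -0.29 ± 0.224 over all libraries (edgeR adjusted p 0.568) and -1.04 ± 0.166 within columns 1 and 2 (adjusted p 0.000362), and 0.34 within columns 3 and 4 (adjusted p 0.541). Cyp7b1 had 181, 386, 114 and 61.1 CPM in control and 47.4, 64.5, 146 and 156 CPM in HIRA KO. Its values of -0.84 ± 0.587 over all libraries (edgeR adjusted p 0.532) and -2.34 ± 0.692 within columns 1 and 2 (adjusted p 0.066) did not pass, nor did 0.79 within columns 3 and 4 (adjusted p 0.785).

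Cyp8b1 showed the opposite arrangement, with the uneven libraries in control. It had 235 and 157 CPM in control 1 and 2 and 11.7 and 21.8 CPM in control 3 and 4, against 209, 243, 88.9 and 91.9 CPM in HIRA KO. Control 3 and 4 lay below all 4 HIRA KO libraries. Over all libraries the log2 fold change was 0.57 ± 0.719 (edgeR adjusted p 0.756), and within columns 3 and 4 Cyp8b1 was higher in HIRA KO by 2.43 ± 0.331 (adjusted p 0.0191), a call lost without control 3, HIRA KO 3 or HIRA KO 4. Cyp7a1 followed the same libraries, with 32.4, 59.4, 2.29 and 6.67 CPM in control and 50.6, 23.7, 26.3 and 24.5 CPM in HIRA KO. Its log2 fold change of 2.49 ± 0.584 within columns 3 and 4 was not called (edgeR adjusted p 0.244). Both enzymes of the classic route were thus lowest in the same 2 control livers. Clock genes differed in this comparison as well: 1 of 12 was called (Ciart, higher in HIRA KO, edgeR adjusted p 0.0383), 9 had an unadjusted p under 0.05, and the groups did not overlap for 8 (6 higher and 2 lower). In the same comparison edgeR called 0.491% of all 23018 genes, and 3629 of them lay below 0.05 before adjustment. The groups did not overlap for 8.10% of all genes. The median log2 fold change of the clock genes was 1.03, and their part in Cyp7a1 and Cyp8b1 was not tested.

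After regeneration Abcb11 stood at 525.4 ± 126.5 CPM in HIRA KO against 647.3 ± 77.0 in control, Nr1h4 at 79.5 ± 7.26 against 81.6 ± 24.8 and Nr0b2 at 36.8 ± 12.8 against 32.7 ± 6.57 CPM (n = 4), none of them called. Within columns 1 and 2 after regeneration 3 of the 10 members were called, all lower (Slc10a1, Slco1b2 and Cyp27a1), against 12.4% of all genes. Columns 3 and 4 gave 1 (Cyp8b1, higher), against 0.200% of all genes.

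The third question was how the genes changed from before to after regeneration. In control livers 9 of the 10 members had a lower mean log2 level after it, and Slc10a2 had a higher one. Of these, Cyp27a1 fell and Slc10a2 rose by edgeR, 2 of 10, where 10.2% of all genes were called. The groups did not overlap for 5 of 10, with Cyp8b1, Cyp27a1, Slc10a1 and Slco1b2 lower and Slc10a2 higher, where 19.0% of all genes did not overlap. The members' median log2 fold change was -0.65, against 0.00 for all genes.

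Cyp27a1 had 499, 471, 532 and 497 CPM in control before and 359, 289, 274 and 204 CPM after regeneration. The 4 libraries after it all lay below the 4 before it, with means of 281.8 ± 63.5 and 499.8 ± 25.2 CPM and a log2 fold change of -0.83 ± 0.225 (edgeR adjusted p 0.0248). Slc10a2 rose from 41.3 ± 10.3 to 71.9 ± 14.1 CPM, with a log2 fold change of 0.80 ± 0.204 (edgeR adjusted p 0.0182). With 1 library left out, Cyp27a1 kept its call in 2 of 8 fits, without control 2 before or control 1 after regeneration (edgeR adjusted p up to 0.0744 in the others). Slc10a2 kept its call in 5 of 8, and lost it without control 1 or 2 before regeneration or control 3 after it (edgeR adjusted p up to 0.0631). Without both control 3 and 4 after it, 0 members were called. This comparison and that of HIRA KO with control before regeneration share the control libraries in which Slc10a2 was lowest.

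The basolateral carriers were lower in every control library after regeneration, although neither was called over all libraries. Slc10a1 stood at 712.6 ± 47.2 CPM before and 304.7 ± 94.0 after it (log2 fold change -1.23 ± 0.779, edgeR adjusted p 0.389). Slco1b2 stood at 913.7 ± 28.7 and 510.5 ± 83.5 CPM (log2 fold change -0.84 ± 0.374, edgeR adjusted p 0.187). The fit over all libraries shares 1 spread per gene with the HIRA KO groups, where libraries 1 and 2 differ from 3 and 4. In the fit of the 2 control groups alone, both were called lower, and 4 of the 10 members were called in all. The share of all genes called in that fit is not given here, so its count does not set the members apart from other genes. The log2 fold change of Nr1h4 was -0.48 ± 0.165 (edgeR adjusted p 0.0730).

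Cyp8b1, which sets the share of cholic acid, differed most. It had 250, 440, 446 and 450 CPM in control before regeneration and 235, 157, 11.7 and 21.8 CPM after it. All libraries after it lay below all before it, but control 1 after regeneration came close to control 1 before it, and the log2 fold change of -1.90 ± 0.741 was not called (edgeR adjusted p 0.136). Within columns 3 and 4 Cyp8b1 fell by 4.74 on the log2 scale, with an SE of 0.362 and an edgeR adjusted p of 2.5e-05, which is 26.7-fold lower. Cyp7a1 fell by 3.13 on the log2 scale within the same columns, with an SE of 0.588 and an edgeR adjusted p of 0.00951, and was not called over all libraries (0.481) or within columns 1 and 2 (0.855). Cyp8b1 was not called within columns 1 and 2 either (edgeR adjusted p 0.173). Within columns 3 and 4 of control, 7 of the 10 members were called (6 lower and Slc10a2 higher), against 13.7% of all genes, and within columns 1 and 2, 3 were (Cyp27a1 and Slco1b2 lower, Slc10a2 higher), against 5.81%.

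Cyp7a1 and other bile acid genes follow a daily rhythm in liver, and clock genes moved in the same comparison. Of 12 clock genes, 7 were called lower after regeneration in control, and their summed CPM was 310.5 to 409 before and 178.1 to 201 after. Dbp, a clock-driven activator, had 46.7, 34.7, 7.10 and 7.34 CPM in control 1 to 4 before and 3.07, 3.38, 0.872 and 3.17 CPM after regeneration. Cyp8b1 had 250, 440, 446 and 450 CPM in control 1 to 4 before and 235, 157, 11.7 and 21.8 CPM after regeneration. The summed clock genes after regeneration were 178.1 and 201 CPM in control 1 and 2 and 199.4 and 189.7 CPM in control 3 and 4. Of the 12 clock genes, 8 had a log2 fold change below 0 and 4 above it in this comparison. The sum thus adds genes that moved in opposite directions and does not show the time of the clock. The part of the clock in these changes was not tested. The male-biased genes summed to 2800 to 7194 CPM before and 996.7 to 3723 CPM after regeneration, with 1 of 8 called lower, and 2 of 8 female-biased genes were called higher. Among all genes tested, 10.2% were called in this comparison. Of 11 acute phase genes 6 were called higher. All 6 Kupffer cell markers were called higher, with sums of 98.7 to 282 and 591 to 746.2 CPM, while 3 of 8 hepatocyte markers were called lower (Serpina1c, Tat and Pck1). Of these 8 markers 7 had a log2 fold change below 0, with a median of -0.48, although their sum, led by abundant transcripts, was 108500 to 121200 before and 110400 to 157700 after.

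In HIRA KO livers all 10 members had a log2 fold change below 0 after regeneration. Of these 1 was called, Cyp27a1, against 12.0% of all genes, and the groups did not overlap for 2 (Cyp8b1 and Cyp27a1), against 16.1%. The members' median was -0.50 and that of all genes 0.02. Cyp27a1 stood at 412, 427, 568 and 557 CPM before and at 149, 166, 266 and 340 CPM after it (log2 fold change -1.09 ± 0.226, edgeR adjusted p 0.00498). Its call was kept in 8 of 8 fits that left out 1 library, unlike that in control. All 6 Kupffer cell markers and 6 of 11 acute phase genes were called higher here too, and 1 of 12 clock genes and 4 of 8 hepatocyte markers were called lower.

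Because the HIRA KO libraries with the same column number varied together before and after regeneration, each change was also fitted with a block for each column number within each genotype, chosen after seeing the data. These pairs are in no label, and HIRA KO 3 before regeneration was closer to number 4 after it (r = 0.52) than to number 3 (r = 0.46). Slc10a1 went from 45.1, 110, 574 and 672 CPM to 38.8, 54.1, 248 and 288 CPM, lower in 4 of 4 numbered pairs. Its log2 fold change was -1.16 ± 0.779 without the block (edgeR adjusted p 0.377) and -0.93 with it (adjusted p 0.00247). Slco1b2 was lower in 4 of 4 pairs as well, at -0.81 ± 0.374 without the block (edgeR adjusted p 0.178) and -0.93 with it (adjusted p 3e-04). Abcb11, the export pump, was at -0.45 ± 0.162 without the block (edgeR adjusted p 0.0804) and -0.47 with it (adjusted p 0.0469). This block raised the members called from 1 to 4, all lower. The share of all genes called with this block is not given here, so the count does not set the members apart from other genes. A block on column number shared by both genotypes left 1 called, with edgeR adjusted p of 0.380 for Slc10a1, 0.129 for Slco1b2 and 0.0731 for Abcb11.

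Cyp8b1 in HIRA KO went from 425, 454, 516 and 397 CPM to 209, 243, 88.9 and 91.9 CPM, with no overlap, and its log2 fold change of -1.50 ± 0.731 was not called (edgeR adjusted p 0.207). As in control, libraries 3 and 4 were the lower after regeneration. Slc10a2 was at -0.55 ± 0.203 (edgeR adjusted p 0.0857) and Nr1h4 at -0.33 ± 0.165 (edgeR adjusted p 0.215). Within columns 1 and 2 of HIRA KO, 4 of the 10 members were called, all lower (Cyp27a1, Slco1b2, Slc10a2 and Abcb11), against 8.75% of all genes. In columns 3 and 4 also 4 were called lower (Cyp8b1, Cyp27a1, Slco1b2 and Nr1h4), against 12.9%.

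**Figure D4:**
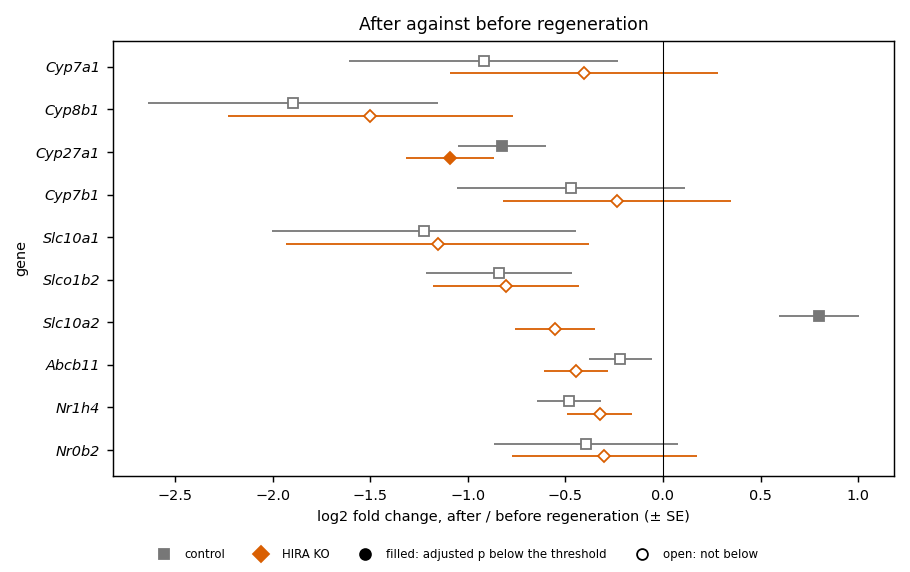
Log2 fold change (± SE) of after against before regeneration for the 10 genes in control (squares) and HIRA KO livers (diamonds), 4 libraries per group, filled where called by edgeR. Slc10a2 lay at 0.80 in control and -0.55 in HIRA KO, and Cyp27a1 at -0.83 and -1.09.

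The 10 genes fell into groups by how their levels ran over the 16 libraries, described here by Pearson's r of log2(CPM + 1), with the libraries sharing genotype, time and depth. Slc10a1 and Slco1b2 ran together (r = 0.93), as did Cyp27a1 and Slco1b2 (0.89), Cyp7a1 and Cyp8b1 (0.87) and Cyp8b1 and Nr1h4 (0.85). Slc10a2 had r of -0.47 with Nr1h4, -0.35 with Slc10a1, 0.01 with Abcb11 and 0.21 with Nr0b2, with the other 5 members in between. Among 13176 genes with a mean of at least 1 CPM, the most alike to Slc10a1 was Cyp2c37 (0.97), and to Slco1b2 it was Pccb (0.98), then Sult2a8 and Aldh2. Cyp27a1 was closest to Gramd3 (0.98), Cyp8b1 to Flt1 (0.92) and Cyp7a1 to Gm5096 (0.92) and then Bhmt. Cyp7b1 was closest to Serpina1e (0.89), Slc10a2 to Gda (0.88), Nr1h4 to Myct1 (0.94) and Nr0b2 to Gdf15 (0.82).

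Other genes of the pathway were taken from lists fixed with the members. Of 15 further synthesis and conjugation enzymes, 0 were called between HIRA KO and control at either time, beside 0.0391% of all genes before and 0.491% after regeneration. With regeneration 2 were called lower in control, beside 10.2% of all genes called, and 2 in HIRA KO, beside 12.0%. Slc27a5, the ligase that primes bile acids for conjugation, fell in control from 1115 ± 35.0 to 648.1 ± 192.2 CPM (log2 fold change -0.78, edgeR adjusted p 0.0276). Cyp46a1, a cholesterol 24-hydroxylase, fell in both genotypes, and Abcd3, a peroxisomal carrier of bile acid precursors, fell in HIRA KO (log2 fold change -0.73, edgeR adjusted p 0.0237). Within columns 1 and 2, 5 of the 15 were called lower and 1 higher in HIRA KO before regeneration, and 8 lower and 1 higher thereafter, beside 8.55% and 12.4% of all genes called in either direction, with Slc27a5 and Baat, the conjugating enzyme, lower and Cyp39a1 higher at both times. None of the 15 was called by edgeR within columns 3 and 4 at either time.

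Of 12 further transporters, Abcc2, the canalicular pump of conjugates, was called lower in HIRA KO after regeneration, at 495.8 ± 103.4 against 861.2 ± 105.6 CPM (log2 fold change -0.80 ± 0.158, edgeR adjusted p 0.0392, groups not overlapping). Its log2 fold change was -0.88 within columns 1 and 2 (edgeR adjusted p 0.00265) and -0.73 within columns 3 and 4 (adjusted p 0.154), lower in both pairs of columns. Slc51b, a subunit of the basolateral exporter of bile acids, rose after regeneration in control from 0.711 ± 0.406 to 3.03 ± 1.81 CPM (edgeR adjusted p 0.00758) and in HIRA KO from 0.568 ± 0.211 to 5.03 ± 0.882 CPM (adjusted p 0.000701). Abcc4, another basolateral exporter, rose in control (log2 fold change 1.42, edgeR adjusted p 0.0216), and Slco2b1, an uptake carrier, fell in HIRA KO (-0.89, edgeR adjusted p 0.00377). Abcc3, a basolateral exporter, had 28.2 and 48.3 CPM in HIRA KO 1 and 2 against 356 and 250 CPM in control 1 and 2 before regeneration (log2 fold change -2.99 within these columns, edgeR adjusted p 4.35e-05). Abcc3, Slc10a1 and Slco1b2 were thus lower in the same 2 livers. Slco1a4, another uptake carrier, was not, with a log2 fold change within these columns of 0.35 before regeneration (edgeR adjusted p 0.232). After regeneration Slco1a4 was called higher there (1.69, edgeR adjusted p 6.65e-06). Of the 12 transporters, 2 were called lower and 0 higher within columns 1 and 2 before regeneration (8.55% of all genes). After it 5 were called lower and 3 higher (12.4%).

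Of 14 further regulators tested, Nr5a2 (LRH-1), an activator of Cyp7a1 and Cyp8b1, was called lower in HIRA KO after regeneration, at 41.3 ± 2.44 against 57.7 ± 4.45 CPM (log2 fold change -0.48 ± 0.104, edgeR adjusted p 0.0464, groups not overlapping). It also fell with regeneration in HIRA KO (-0.38, edgeR adjusted p 0.0239). Klb, the coreceptor for the intestinal hormone FGF15, fell with regeneration in control (-0.83, edgeR adjusted p 0.0187). Fgf15 itself had 0 counts in all libraries and was not tested. Nr1i3 (CAR), a receptor that induces detoxifying enzymes and carriers, had 4.13 and 5.73 CPM in HIRA KO 1 and 2 before regeneration against 56.0 and 45.6 CPM in control 1 and 2 (log2 fold change -3.37 within these columns, edgeR adjusted p 0.00149). Of the 14 regulators, 4 were called lower and 1 higher within columns 1 and 2 before regeneration (8.55% of all genes) and 6 lower after it (12.4%). Within columns 3 and 4, 0 were called by edgeR at either time (0.0478% and 0.200% of all genes).

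**Figure D5:**
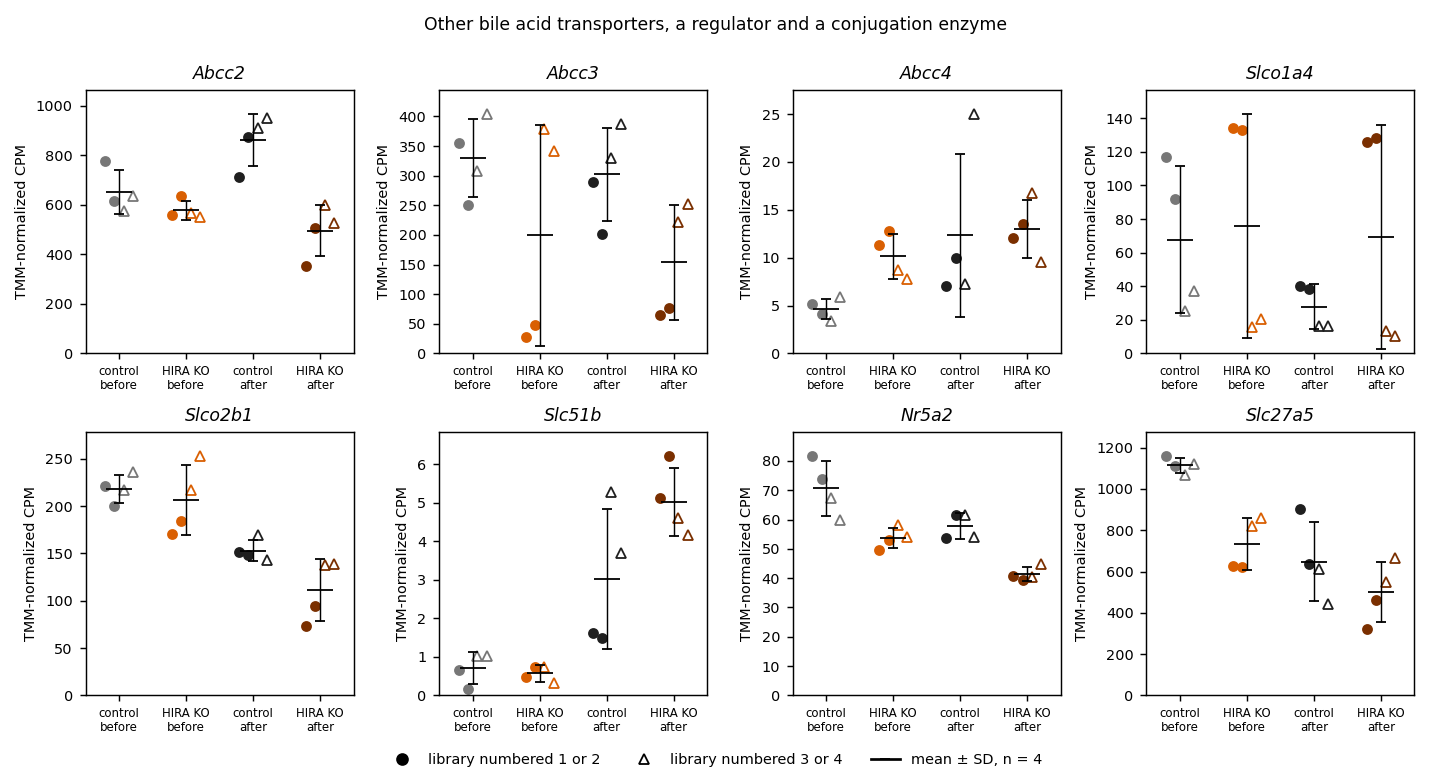
CPM of 8 other bile acid genes in each library by group, with columns numbered 1 and 2 as circles and 3 and 4 as triangles and bars for mean ± SD (n = 4). Abcc3 stood at 28.2 and 48.3 CPM in HIRA KO 1 and 2 before regeneration, and Abcc2 at 495.8 ± 103.4 in HIRA KO against 861.2 ± 105.6 CPM in control after it.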

How the data were processed

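Bulk poly-A RNA-seq of mouse liver gave 16 libraries, 4 in each of 4 groups. According to the study's methods, the authors trimmed reads with Trim Galore, aligned them to mm10 with STAR and counted reads per gene with HOMER, whereas the submitters' processing notes list STAR, HTSeq and Cufflinks. The deposited count table holds raw read counts. The deposited FPKM table was made with a tool that is not given in the sources used here, its values were not proportional to the counts divided by 1 length per gene, and its empty cells were read as 0. Counts of genes with at least 10 reads in total were scaled by TMM and fitted with edgeR (version 4.0.16, R version 4.3.3), 1 mean per group, using its robust quasi-likelihood test. P-values were adjusted by Benjamini-Hochberg across the 23018 genes, and genes were called under 0.05. A fit with 8 means (group by columns 1 and 2 or 3 and 4) gave the values within columns. DESeq2 (version 1.42.0) and limma (version 3.58.1, on log2 FPKM) were alternatives. The step was tested on simulated data. The columns name group and running number only, so p-values treat each column as a separate mouse of its group. Same-numbered HIRA KO libraries before and after regeneration deviated together (r = 0.59, 0.39, 0.46 and 0.58), so blocked values are given for them, although number 3 before regeneration was closer to number 4 after it (r = 0.52). The smallest and largest totals, 15103059 and 21738619, set the precision, and chi-square tests of replicate pairs gave at least 12.4 per degree of freedom, so no library was a copy of another. All 10 members were named, and from the other lists the genes that passed the test or share a role with a member. The 3 genes most alike were taken by r. Members, lists and the split by column number were chosen with earlier results of these data known. A few genes that met these rules are not reported here.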

Additional observations from a re-analysis of the deposited data

Results flagged for a closer look

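Each of the 10 genes was examined in each of the 4 groups for a library far from the other 3 by the 95% critical value of Dixon's ratio. Of the 40 tests, 3 passed, and chance flags about 1 in 20 groups. Cyp7a1 stood at 50.6 CPM in HIRA KO library 1 after regeneration, against 23.7 to 26.3 CPM in the other 3. Cyp8b1 stood at 250 CPM in control library 1 before regeneration, against 440 to 450 CPM. Slc10a2 stood at 56.6 CPM in control library 4 before regeneration, against 35.1 to 38.1 CPM.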

How the results depend on the processing

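The Slc10a2 call in HIRA KO before regeneration was lost (0 members called) under edgeR's filterByExpr filter (adjusted p 0.0511) and in all 3 limma fits on FPKM (0 each, adjusted p 0.0812 with a pseudocount of 1, 0.0515 with 0.1 and 0.155 without a filter). Without HIRA KO 1 and 2, and within columns 3 and 4, 0 were called there. DESeq2 called 4 members with regeneration in control, 2 in HIRA KO, 1 in the interaction (Slc10a2) and 2 within columns 3 and 4 in HIRA KO after it. With only the groups compared in the fit, 4 were called with regeneration in control and 2 in HIRA KO. With limma and no filter 1 was called with regeneration in control, and without a filter on counts 1 (Slc10a2) within columns 3 and 4 before it. Columns 1 and 2 alone gave 3 called between HIRA KO and control before regeneration, 3 after it, 4 with regeneration in HIRA KO and 1 in the interaction. Columns 3 and 4 alone gave 0, 1, 4 with regeneration in HIRA KO and 7 in control. Leaving out HIRA KO 3 and 4 gave 3, 3, 3 and 1, and leaving out HIRA KO 1 and 2 gave 3 with regeneration in HIRA KO. Leaving out control 3 and 4 after regeneration gave 0 with regeneration in control. Log2 fold changes of HIRA KO against control after regeneration, none of them called, changed sign within columns 3 and 4 for Cyp27a1 (0.34), Cyp7b1 (0.79), Slc10a1 (0.13) and Slco1b2 (0.34), without HIRA KO 1 and 2 for Cyp8b1 (-0.21), Cyp27a1 (0.12), Slco1b2 (0.18) and Slc10a2 (0.13), and without control 3 and 4 for Cyp8b1 (-0.26) and Slc10a2 (0.05). Leaving out 1 library at a time gave 0 to 1 members called in HIRA KO before regeneration, 0 to 4 with regeneration in control (0 without control 1 before it or control 3 after it), 1 to 2 in HIRA KO and 0 to 1 within columns 3 and 4 after it, and a Slc10a2 log2 fold change after regeneration of -0.33 to 0.0084. The block on column number by genotype gave 5 members with regeneration in control and 4 in HIRA KO. The block on column number alone gave the same counts as the fit without it (1 in HIRA KO before regeneration, 0 after it, 2 with regeneration in control, 1 in HIRA KO). In control, same-numbered libraries before and after correlated at 0.20, 0.28, 0.08 and 0.38, and each was closest to its own number. The fits without HIRA KO 1 and 2, HIRA KO 3 and 4 or control 3 and 4, the block by genotype and all settings within columns were chosen after seeing the data. For most of these settings the share of all genes called is not given here. The counts alone thus do not set the members apart from other genes. The cause of the changes between settings was not tested. Over the named genes, 580 results under other settings had the same side and direction, 51 passed the threshold anew, 27 lost it and 11 changed sign. Few reads limit Hira, Slc51b and Cyp46a1 most.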
